A study of Mus musculus with 6 samples.

Results

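The uncoupling proteins Ucp1, Ucp2 and Ucp3 were followed in bulk RNA-seq of the interscapular brown fat depot of newborn mice. The members were the rows of the deposited expression table that carry these 3 symbols, and all 3 were found among 19241 genes. The 6 libraries form a pair of groups. The group called WT (n = 3) came from newborns labelled Fstl1-floxed, in which the Fstl1 gene carries recombination sites. The group called KO (n = 3) came from newborns labelled Myf5-Fstl1 KO, in which Fstl1, the gene of the secreted protein follistatin-like 1, was removed from the Myf5 lineage. That lineage gives rise to much of the interscapular brown fat and also to skeletal muscle, so the deletion is not limited to brown adipocytes. The labels name no Cre allele in WT and give no strain. They do not say whether each library is a separate animal, so p-values measure only the spread between these libraries.

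Uncoupling proteins are carriers of the inner mitochondrial membrane and belong to the SLC25 family. UCP1 lets protons flow back into the matrix without ATP synthesis and so turns respiration into heat. Its gene is the defining marker of brown and beige adipocytes, and its activity needs free fatty acids and is held down by purine nucleotides. UCP2 is found in many tissues and is abundant in immune cells. UCP3 is found mainly in skeletal muscle and brown fat, and its transcript responds to fatty acids and fasting. The functions of UCP2 and UCP3 are less settled than that of UCP1.

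Ucp1 (Entrez gene 22227, transcript NM_009463) lies on mouse chromosome 8 at chr8:83290348-83298456 of GRCm38.p6, which is the mm10 assembly named in the submitters' processing notes. Ucp3 (22229, NM_009464) lies at chr7:100472991-100486432. Ucp2 (22228, NM_011671) lies at chr7:100493337-100499629, with 6904 bp between it and Ucp3. All 3 are on the plus strand. The 250 bases before each annotated start are shown for reference, and any link between them and the levels below was not tested. They were taken from RefSeq on GRCm38.p6, which held all 3 members, and are written 5′ to 3′ on the gene's strand. Capitals mark matches, on either strand, to the TATA box TATAAA, its variant TATATA, the GC box GGGCGG, the nuclear receptor half-site AGGTCA, the cAMP response half-site TGACG and the CCAAT box. They lie at chr8:83290098-83290347, chr7:100493108-100493357 and chr7:100472741-100472990 for Ucp1, Ucp2 and Ucp3. Each ends at the base before the start that the RefSeq promoter table uses. For Ucp2 this start, 100493358, lies 21 bases after the outermost start of the gene given above, so the last 21 bases shown are inside that gene span.
Ucp1: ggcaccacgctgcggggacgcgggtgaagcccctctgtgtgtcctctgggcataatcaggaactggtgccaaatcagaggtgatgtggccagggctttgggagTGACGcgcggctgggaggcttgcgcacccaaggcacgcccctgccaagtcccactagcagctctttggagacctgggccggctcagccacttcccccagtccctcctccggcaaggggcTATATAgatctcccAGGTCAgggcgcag
Ucp2: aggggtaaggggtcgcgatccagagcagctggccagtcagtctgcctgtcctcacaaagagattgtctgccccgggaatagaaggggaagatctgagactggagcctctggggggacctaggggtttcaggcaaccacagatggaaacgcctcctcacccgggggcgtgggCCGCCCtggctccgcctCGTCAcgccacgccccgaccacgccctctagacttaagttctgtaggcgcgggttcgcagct
Ucp3: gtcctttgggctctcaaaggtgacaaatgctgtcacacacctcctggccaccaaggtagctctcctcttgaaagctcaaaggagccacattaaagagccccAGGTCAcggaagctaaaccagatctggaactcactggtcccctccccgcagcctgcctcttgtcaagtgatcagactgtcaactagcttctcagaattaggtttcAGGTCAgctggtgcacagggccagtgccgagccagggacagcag

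The Ucp1 stretch held TATATA at bases 28 to 23 before the start, 1 AGGTCA at bases 14 to 9 and 1 TGACG at bases 147 to 143. Among 32851 RefSeq promoter windows of this length, 5.25% held TATATA, 14.0% AGGTCA and 17.8% TGACG, each counted on both strands. The Ucp2 stretch held 1 GC box, as did 32.7% of the windows, and 1 TGACG, and no TATA motif. The Ucp3 stretch held AGGTCA at 2 places, bases 149 to 144 and 44 to 39, and none of the other motifs in capitals. TATAAA, present in 12.4% of the windows, and CCAAT, present in 33.8%, matched in none of the 3. The E-box CANNTG, which is not capitalised and matched 66.2% of the windows, was at 2 places in Ucp2, 3 in Ucp3 and 0 in Ucp1. One of those in Ucp3, at bases 40 to 35, overlaps the AGGTCA nearer the start. The GC content was 64.8% for Ucp1, 63.6% for Ucp2 and 54.8% for Ucp3, against a median of 52.4% over all windows. Ucp1 held 12 CpG pairs, Ucp2 16 and Ucp3 3, against a median of 6. A match is a string of letters and not evidence of binding.

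Expression was given as FPKM (fragments per kilobase, relative to the mapped fragments of each library), a value per transcript length, so levels can be set side by side between genes. FPKM summed to 486449 to 556968 per library. Steps between low values gave an estimated 13500000 to 14700000 reads per library. Fstl1 ranged from 54.4 to 130.04 FPKM in WT and from 7.93 to 13.1 FPKM in KO, with no overlap. The libraries also differed by sex: Xist ranged from 44.8 to 85.5 FPKM in WT and from 0.05 to 0.92 FPKM in KO, while the Y-linked gene Ddx3y ranged from 0 to 0.23 FPKM and from 59.5 to 60.8 FPKM. The labels give no sex. Every KO library had Y-linked transcripts and every WT library had Xist, so for each result here genotype and sex cannot be told apart. The brown fat markers Cidea, at 1299 to 1988 FPKM over the 6 libraries, and Cox8b, at 1213 to 2772 FPKM, were abundant in both groups.

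The 3 members stood far apart in level, in the same order in each of the 6 libraries: Ucp1 was highest, Ucp2 next and Ucp3 lowest. The lowest Ucp1 value, 1695 FPKM, lay above the highest Ucp2 value, 257.5 FPKM, and the lowest Ucp2 value, 110.5 FPKM, lay above the highest Ucp3 value, 19.25 FPKM. Ucp1 made up 95.7% to 97.3% of the summed FPKM of the family in WT and 93.7% to 94.1% in KO. It ranked 3rd, 2nd and 3rd among all genes of the table in WT replicates 1, 2 and 3, and 8th, 24th and 6th in KO replicates 1, 2 and 3. Its share of all FPKM in a library was 0.898% to 1.18% in WT and 0.324% to 0.713% in KO. Ucp2 ranked between 329 and 698 and Ucp3 between 3782 and 9779. At the estimated depth, the Ucp3 values rest on about 108 to 686 reads per library, computed for its 2448-nt transcript, so counting error is small beside the spread between libraries.

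**Figure D1:**
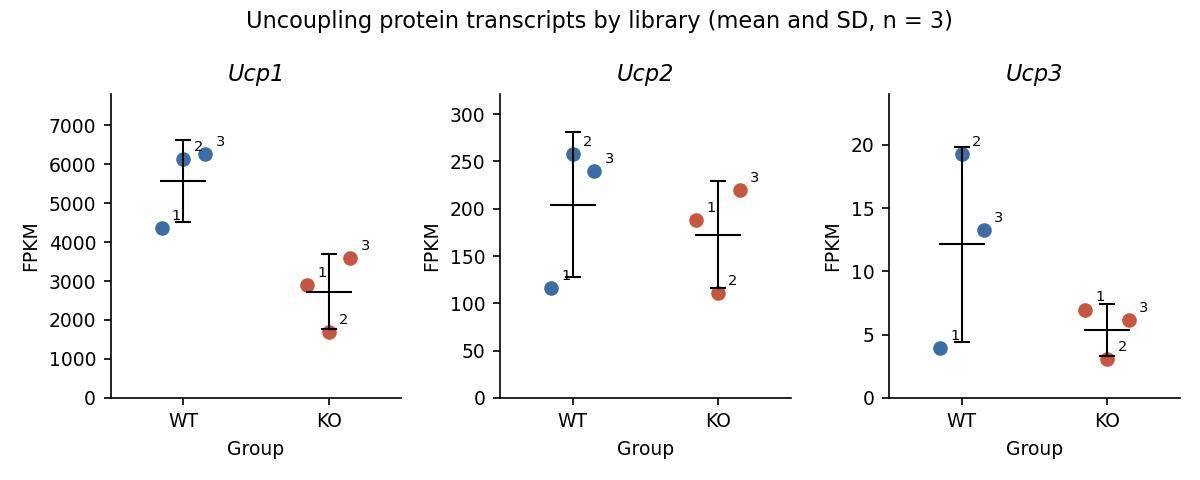
FPKM of Ucp1, Ucp2 and Ucp3 (linear axes starting at 0, a different scale in each panel) in each WT (blue) and KO (red) library, with replicate numbers beside the points and the mean with SD as bars (n = 3). Ucp1 is the member whose groups do not overlap, with WT from 4366 to 6255 and KO from 1695 to 3592 FPKM, while KO replicate 2 and WT replicate 1 are the lowest of their group in every panel.

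Ucp1, the thermogenic uncoupler, had lower values throughout the KO group but did not pass the test over all genes. The WT libraries 1, 2 and 3 held 4366, 6124 and 6255 FPKM, and the KO libraries 1, 2 and 3 held 2902, 1695 and 3592 FPKM. The groups did not overlap, and KO replicate 2 was the lowest. Mean levels with SD (n = 3) were 5582 ± 1055 FPKM for WT and 2729 ± 960 FPKM for KO. The log2 fold change on the log2(FPKM + 1) scale was −1.08 with a standard error of 0.28 and a 95% interval of −1.70 to −0.46 before adjustment (limma, adjusted p = 0.0804). The exact two-sided permutation test gave p = 0.1, the smallest that 3 libraries against 3 allow. Of 13331 genes tested, 11.4% were lower in KO with no overlap between the groups. In bulk tissue, fewer brown adipocytes and less Ucp1 RNA per cell cannot be told apart.

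Ucp2, the widely expressed member, showed no separation between the groups. The WT libraries 1, 2 and 3 held 116.3, 257.5 and 239.7 FPKM, and the KO libraries 1, 2 and 3 held 187.7, 110.5 and 219.9 FPKM. The lowest WT library lay close to the lowest KO library, and 2 KO libraries lay inside the WT range. Mean levels were 204.5 ± 76.9 FPKM for WT and 172.7 ± 56.2 FPKM for KO (SD, n = 3 each). Its log2 fold change of −0.22 did not pass (limma, SE 0.34, adjusted p = 0.775), with a 95% interval of −0.98 to 0.55 that holds both a fall of nearly the size seen for Ucp1 and a rise. Leaving out KO replicate 2 moved it to 0.07 (limma, adjusted p = 0.94).

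Ucp3, the member known from muscle and brown fat, had the widest spread within a group. The WT libraries 1, 2 and 3 held 3.95, 19.25 and 13.3 FPKM, and the KO libraries 1, 2 and 3 held 6.96, 3.05 and 6.16 FPKM. WT replicates 2 and 3 lay above every KO library, and WT replicate 1 lay between KO replicates 2 and 3. The highest WT value was 4.87 times the lowest, against 1.43 times for Ucp1 and 2.21 times for Ucp2. Mean levels were 12.2 ± 7.71 FPKM for WT and 5.39 ± 2.07 FPKM for KO (SD, n = 3 each). Its log2 fold change of −0.88 did not pass (limma, SE 0.47, adjusted p = 0.353; exact permutation p = 0.3), with a 95% interval of −1.95 to 0.20. Without WT replicate 1 it was −1.47 (limma, adjusted p = 0.0546), and without WT replicate 2 it was −0.45 (adjusted p = 0.724).

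Thus 0 of the 3 members passed an adjusted p of 0.05 in limma, which 2.21% of all tested genes did, 1.01% lower and 1.21% higher in KO. Before adjustment, Ucp1 alone had a p under 0.05 (limma across all genes, unadjusted p = 0.00353), as did 19.2% of all tested genes, with 8.6% of the tested genes lower in KO. The groups did not overlap for 1 of the 3 members, as for 24.9% of all tested genes in either direction. Both Ucp1 and Ucp3 passed when limma weighted the libraries by their estimated quality, with adjusted p = 0.00481 and 0.0155. That fit gave WT replicate 2, the highest library for Ucp2 and Ucp3, a weight of 6.70 and the others 0.368 to 1.67. In the other 16 alternative fits, the adjusted p of neither gene was under 0.05.

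**Figure D2:**
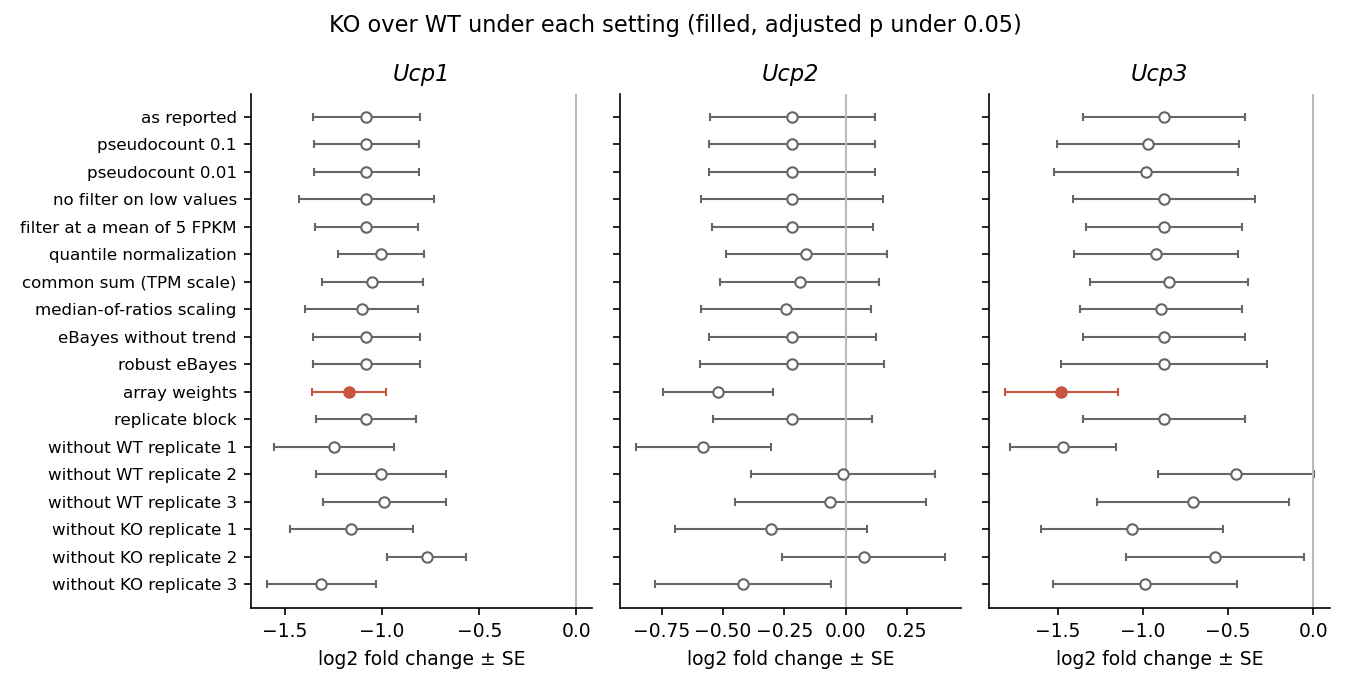
The log2 fold change of KO over WT (horizontal axis, points with 1 standard error) for each member under the reported fit and 17 alternatives. Filled red points pass an adjusted p of 0.05, which happens for Ucp1 and Ucp3 with array weights, and Ucp2 changes sign without KO replicate 2.

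Ratios between members compare them within a library, where scaling cancels. The Ucp1 to Ucp2 ratio was 37.5, 23.8 and 26.1 in WT replicates 1, 2 and 3 and 15.5, 15.3 and 16.3 in KO replicates 1, 2 and 3. The groups did not overlap, and the KO libraries lay within a narrow range although their Ucp1 levels differed 2.12-fold. On the log2 scale the mean was 4.84 ± 0.35 (SD, n = 3) in WT and 3.97 ± 0.05 in KO, a difference of −0.86 (exact permutation p = 0.1, the smallest possible; 0.3 when adjusted over the 3 ratios). The Ucp1 to Ucp3 ratio overlapped fully, at 318 to 1105 in WT and 417 to 583 in KO, with a log2 difference of −0.10 (exact permutation p = 0.9, adjusted 0.9). The Ucp2 to Ucp3 ratio was 13.4 to 29.4 in WT and 27.0 to 36.2 in KO, with a log2 difference of 0.76 (exact permutation p = 0.2, adjusted 0.3). No such test of 3 libraries against 3 could pass 0.05, so these p-values do not show that the members changed alike.

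**Figure D3:**
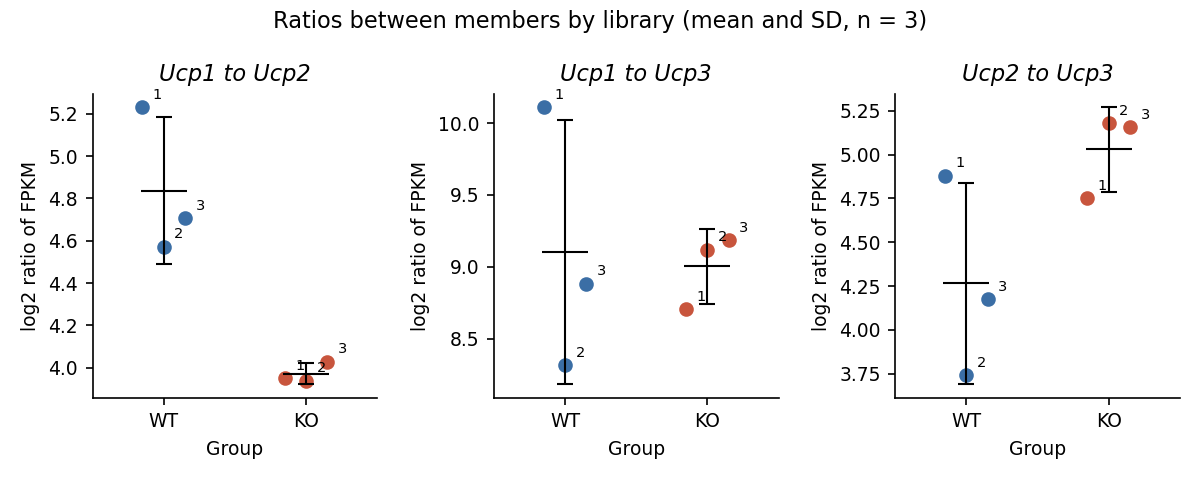
Log2 ratios of FPKM between pairs of members (vertical axes, not starting at 0) in each WT (blue) and KO (red) library, with replicate numbers and the mean with SD (n = 3). The KO libraries lie between 3.94 and 4.03 for Ucp1 to Ucp2, below every WT library, while the other ratios overlap.

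Other markers of brown adipocytes were uneven. Of 13 markers listed without Ucp1, 2 fell and 0 rose, where 1.01% of all tested genes were called lower, and 4 were lower in KO without overlap, where 11.4% of all tested genes were. The median log2 fold change was −0.12 against 0.01 over all genes tested, and the mean log2(FPKM + 1) of the 13 was 5.28 to 5.60 in WT and 4.81 to 5.17 in KO. Whether Ucp1 differed from these markers was not tested. Elovl3, a fatty acid elongase induced with thermogenic activity, fell by 2.34 on the log2 scale (limma, adjusted p = 0.0151), and the proton channel gene Otop1 fell by 1.52 (adjusted p = 0.0243). Cidea, which encodes a lipid droplet protein, had a log2 fold change of 0.13 (limma, adjusted p = 0.747). The cytochrome oxidase isoform genes Cox7a1 and Cox8b were at −0.06 (limma, adjusted p = 0.913) and 0.06 (adjusted p = 0.935). The log2 level of Ucp1 relative to the mean log2 level of these 13 markers was 6.96 ± 0.13 (SD, n = 3) in WT and 6.38 ± 0.60 in KO. KO replicates 1 and 2 lay below the WT range at 6.34 and 5.80, and KO replicate 3 lay inside it at 6.998.

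The machinery around Ucp1 in the inner membrane showed no called change. The respiratory chain builds the proton gradient that UCP1 dissipates. Of its 22 listed nuclear subunits, 0 passed in limma at an adjusted or unadjusted p of 0.05. Of all tested genes, 2.21% passed when adjusted and 19.2% had an unadjusted p under 0.05. For the short lists given here, 0 adjusted calls is near that share. The median log2 fold change of the 22 subunits was −0.07. Relative to these subunits, the log2 level of Ucp1 was 2.51, 2.87 and 2.66 in WT and 1.79, 1.09 and 2.12 in KO replicates 1, 2 and 3, without overlap. Among the ADP/ATP and phosphate carriers, SLC25 relatives that serve ATP synthesis, 0 of 3 tested genes passed at an adjusted or unadjusted p of 0.05. Of these 3, 2 were lower in KO without overlap, where 11.4% of all tested genes were. Slc25a4 was at 310 to 404 FPKM in WT and 302 to 323 FPKM in KO (limma, adjusted p = 0.433), and Slc25a5 at 594 to 698 and 564 to 575 FPKM (adjusted p = 0.59). Of 5 tested close relatives of the uncoupling proteins, 0 passed at an adjusted or unadjusted p of 0.05. The related carriers Slc25a27, Slc25a14 and Slc25a30 stayed between 1.43 and 4.6 FPKM in all 6 libraries, and the oxoglutarate carrier Slc25a11, at 62.1 to 94.4 FPKM, was below the lowest Ucp2 value.

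Regulators of Ucp1 transcription held calls in both directions. Of 24 tested, 2 rose and 1 fell in limma, where 2.21% of all tested genes were called. For 11 the groups did not overlap, 6 lower and 5 higher, as for 24.9% of all tested genes. Tle3, a corepressor known to oppose the brown fat programme, rose from 11.7 to 17.5 FPKM in WT to 28.8 to 31.7 FPKM in KO (log2 fold change 1.02, adjusted p = 0.0267). Zfp423, known to hold down thermogenic genes in white fat, fell from 5.69 to 8.48 FPKM in WT to 1.88 to 2.79 FPKM in KO (−1.21, adjusted p = 0.0236). Irf4, a partner of PGC-1alpha in Ucp1 induction, rose from 0.69 to 1.08 FPKM in WT to 10.04, 17.95 and 199.0 FPKM in KO replicates 1, 2 and 3 (4.25, adjusted p = 0.0447), and was 2.99 without KO replicate 3. Among the regulators that did not pass, chosen here after their values were seen, Prdm16 was at 4.13 to 5.25 FPKM in WT and 1.68 to 3.0 FPKM in KO (limma, −0.87, adjusted p = 0.0519). Ppargc1a, the coactivator PGC-1alpha, was at 14.6 to 22.01 FPKM in WT and 20.96 to 35.9 FPKM in KO (0.52, adjusted p = 0.251).

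In the adrenergic chain that switches Ucp1 on, 1 of the 11 tested genes reported here fell and 0 rose, where 1.01% of all tested genes were called lower. Their median log2 fold change was −0.34, with 10 negative and 1 positive, and 4 were lower in KO without overlap, where 11.4% of all tested genes were. Adrb1, the beta-1 adrenergic receptor, fell from 15.5, 6.04 and 9.99 FPKM in WT to 2.26, 1.76 and 1.13 FPKM in KO (−2.02 on the log2 scale, limma, adjusted p = 0.0199). Adrb3, the receptor most used to drive Ucp1 in adult mice, stayed between 0.49 and 2.71 FPKM in all 6 libraries (limma, adjusted p = 0.369). Prkaca, a catalytic subunit gene of protein kinase A named after its values were seen, was at 122 to 168 FPKM in WT and 67.3 to 92.7 FPKM in KO (limma, adjusted p = 0.0559). Dio2, which makes active thyroid hormone in brown fat, was at 25.9 to 56.1 FPKM in WT and 26.9 to 50.7 FPKM in KO (adjusted p = 0.744).

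Fatty acids activate UCP1, and the fatty acid supply list also holds lipid droplet coat genes and the lipolysis inhibitor gene G0s2. It had 3 called falls and 0 rises among 19 tested, where 1.01% of all tested genes were called lower. The list median log2 fold change was −0.39. For 8 of the 19 KO was lower without overlap and for 1 higher, where 11.4% and 13.6% of all tested genes were. Whether the supply of fatty acids changed was not tested. The lipid droplet coat genes Plin1 and Plin5 fell by 1.36 (limma, adjusted p = 0.0267) and 1.37 (adjusted p = 0.0435) on the log2 scale. Acsl1, which activates long-chain fatty acids, fell by 0.69 (adjusted p = 0.0417). The lipase genes Pnpla2 and Lipe were at 0.33 (limma, adjusted p = 0.45) and −0.33 (adjusted p = 0.409), and Cpt1b, which admits fatty acids to mitochondria, was at 0.17 (adjusted p = 0.658). Of 12 adipocyte markers common to white and brown fat, 2 fell and 0 rose, where 1.01% of all tested genes were called lower. The genes that fell were Plin1 and Agpat2, an acyltransferase of triglyceride synthesis (limma, −2.18, adjusted p = 0.0417). The median of the 12 markers was −0.17, and the fatty acid carrier Fabp4 was at −0.07 (limma, adjusted p = 0.85).

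Creatine and calcium cycling genes, named for heat production without UCP1, gave 0 calls among 11 tested. In limma, 2 were lower in KO with an unadjusted p under 0.05, as were 8.6% of all tested genes. The median log2 fold change of the 11 was −0.45, with 10 negative and 1 positive. The summed level of the 12 genes of the list was 174 to 212 FPKM in WT and 88.2 to 160 FPKM in KO. The list holds genes that are also muscle genes, among them Atp2a1, Sln, Ryr1 and Ckmt2, and the part of muscle in its sum was not tested. KO replicate 1, where muscle markers were lowest, had the lowest sum. The 2 genes were Ckb, at 8.78 to 21.7 FPKM in WT and 7.54 to 8.71 FPKM in KO (limma, adjusted p = 0.162), and Atp2a2, at 56.7 to 79.9 and 43.4 to 53.1 FPKM (adjusted p = 0.191). Both were lower in KO with no overlap, as were 11.4% of all tested genes. Of 12 genes that respond to fasting or PPAR ligands, 1 fell and 0 rose, where 1.01% of all tested genes were called lower. The list median was 0.08. The gene that fell was Acot1, an acyl-CoA thioesterase with close paralogs (limma, −1.004, adjusted p = 0.0435). KO replicate 3 had the highest summed level of this list, 6313 FPKM against 4172 to 4364 FPKM in the other libraries. The sum weighs the most abundant genes most. The mean log2(FPKM + 1) of the list was 6.57 in KO replicate 3, nearer to the 6.11 to 6.41 of WT, and 5.92 and 5.91 in KO replicates 1 and 2. In KO replicate 3, Pdk4 was at 784.9 FPKM, above every other library. Pdk4, named after its values were seen, encodes a kinase that restrains pyruvate use in fasting. The lipolysis inhibitor gene G0s2 was at 11.6 FPKM in KO replicate 3, below every other library.

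Each of the 12 genes of these lists and of the patterns below that passed a limma call, other than Fstl1, lost it without at least 1 library. Over the alternatives they lost it in 3 (Elovl3) to 9 (Irf4 and Acsl1) of 17 fits. Zfp423 was in 16 of these fits, as it did not pass the filter at a mean of 5 FPKM. Elovl3 lost the call without WT replicate 2 or 3, and Acsl1 lost it whichever library was left out. Without the filter on low values all 12 lost it, as did Fstl1 (limma, adjusted p = 0.0606), and with the replicate number as a block Acsl1, Agpat2, Plin1, Plin5, Acot1 and Ppif did (limma, adjusted p = 0.0523 to 0.0775), so no called fall of the fatty acid supply list held under the block. The cause of these losses was not tested.

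**Figure D4:**
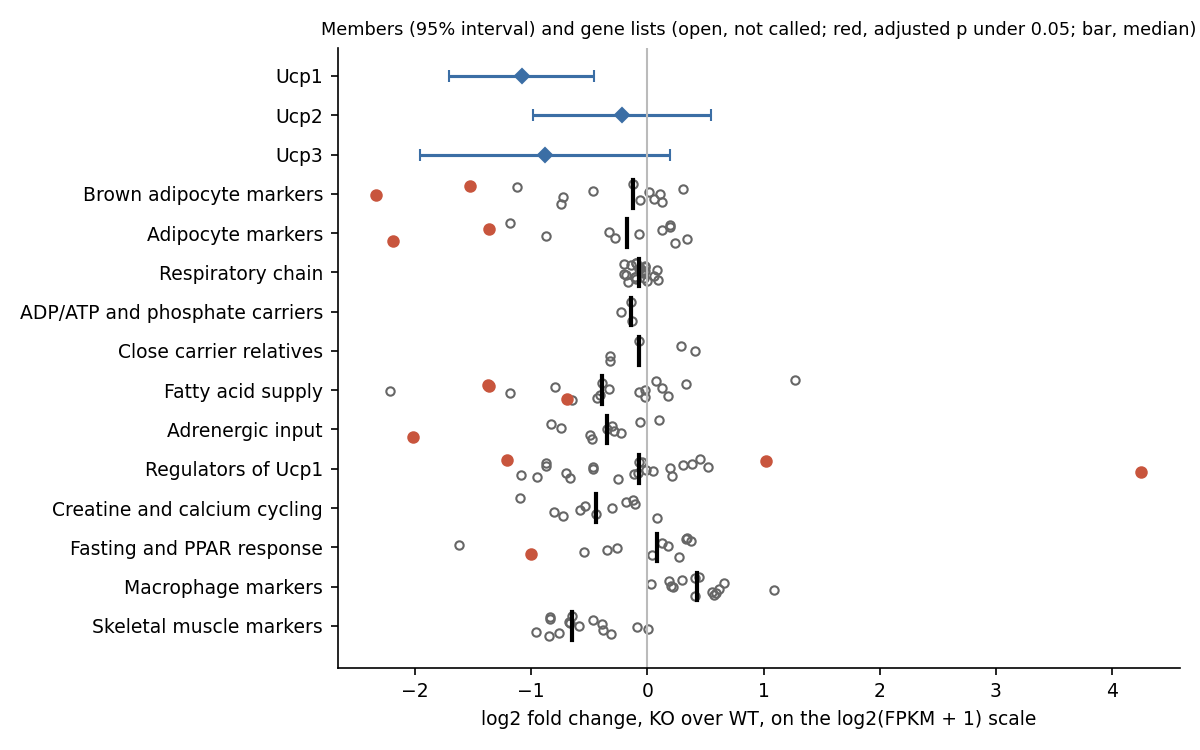
Log2 fold change of KO over WT (horizontal axis, on the log2(FPKM + 1) scale) for the 3 members with 95% intervals (blue) and for each tested gene of 12 lists (open circles, not called; red, adjusted p under 0.05; black bar, list median). The Ucp1 interval lies below 0, from −1.70 to −0.46, the respiratory chain clusters near 0, and the macrophage markers all lie above 0.

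Ucp2 is abundant in immune cells, so macrophage markers are given beside it. All 14 of them had a positive log2 fold change, with a median of 0.43. In limma 0 passed and 7 had an unadjusted p under 0.05, as had 19.2% of all tested genes in either direction. Without overlap, 7 were higher in KO, as were 13.6% of all tested genes. The summed level of the 14 markers was 162 to 235 FPKM in WT and 227 to 318 FPKM in KO. The defining markers Adgre1, Cd68 and Csf1r ranged over 1.76 to 2.46, 8.17 to 11.9 and 6.78 to 7.63 FPKM in WT, and over 2.34 to 4.29, 9.94 to 14.0 and 5.63 to 12.7 FPKM in KO. The WT libraries had the same order in the summed level and in Ucp2, with replicate 1 lowest and replicate 2 highest. In KO the library with the highest sum, replicate 2 at 318 FPKM, had the lowest Ucp2, and the sums of the groups overlapped. Lymphocyte markers were near 0, since 0 of 8 reached the mean needed for testing and their sum was 1.58 to 2.59 FPKM. Neutrophil markers summed to 134 to 210 FPKM in WT and 153 to 369 FPKM in KO, highest in KO replicate 2. The part of these cells in the Ucp2 values was not tested.

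Ucp3 is also a skeletal muscle gene, and muscle was present in every library. The 16 fibre markers summed to 1591, 2333 and 1849 FPKM in WT replicates 1, 2 and 3 and to 419, 1742 and 2088 FPKM in KO replicates 1, 2 and 3. KO replicate 1 was low for the defining markers Acta1, at 78.6 FPKM against 367 to 541 FPKM elsewhere, Ckm, at 25.3 against 98.6 to 150 FPKM, and Mylpf, at 74.4 against 273 to 449 FPKM. That library had the highest Ucp3 of the KO group, 6.96 FPKM, and the Ucp3 log2 fold change without it was −1.06 (limma, adjusted p = 0.375). The part of muscle in the Ucp3 values was not tested. Of 15 fibre markers tested, 0 passed in limma and 1 had an unadjusted p under 0.05, Mb (myoglobin, adjusted p = 0.169). Of all tested genes, 19.2% had such an unadjusted p. The list median was −0.65. Myogenic precursor genes were low, with a summed level of 4.34 to 5.82 FPKM in WT and 0.41 to 3.58 FPKM in KO. Pax7, Pax3 and Myf5 were below the mean needed for testing. Of these, Myf5 was at 0.33 to 0.44 FPKM in WT and 0.04 to 0.17 FPKM in KO, without overlap, and Pax7 and Pax3 overlapped. Myod1, at 0.8 to 1.09 FPKM in WT and 0.12 to 0.59 FPKM in KO (limma, adjusted p = 0.124), and Myog, at 2.86 to 4.23 and 0.25 to 2.83 FPKM (adjusted p = 0.324), did not pass. Both of these genes were lower in KO without overlap, as were 11.4% of all tested genes.

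Markers of further cell types gave no call in limma, where 2.21% of all tested genes were called and 19.2% had an unadjusted p under 0.05. Endothelial markers (0 of 8 in limma, 1 with an unadjusted p under 0.05) had a median log2 fold change of −0.04, and fibroblast markers (0 of 6, 0 unadjusted) 0.29. Schwann cell markers (0 of 5, 0 unadjusted) had a median of −0.08, and tested neutrophil markers (0 of 5, 0 unadjusted) 0.14. Erythroid markers (0 of 7, 0 unadjusted) had a median of −0.45, with a summed level of 11790 FPKM in WT replicate 3 against 2557 to 4174 FPKM in the other libraries.

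**Figure D5:**
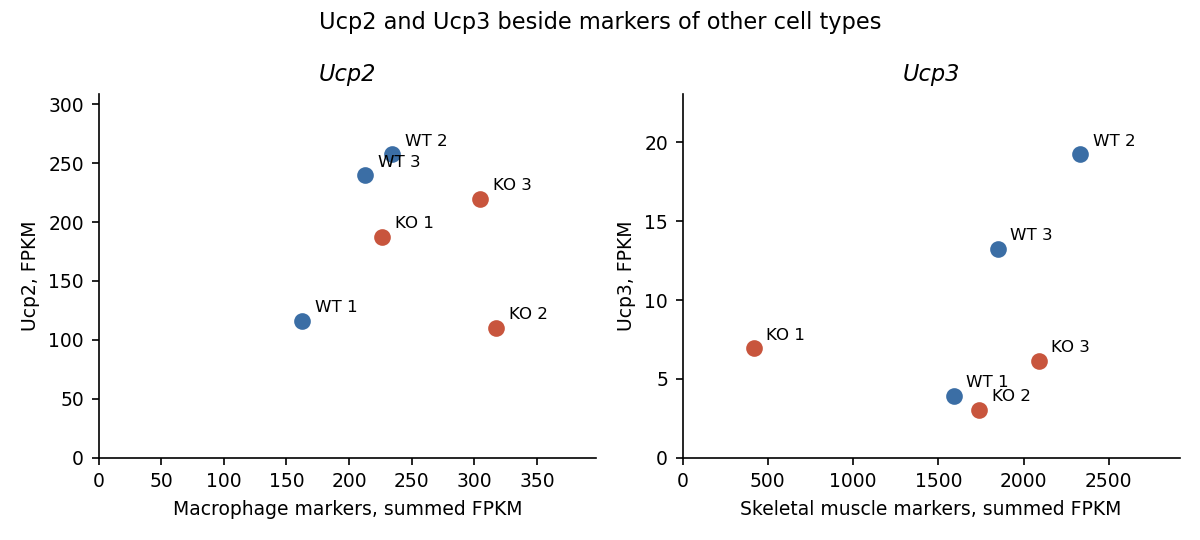
Left, Ucp2 against the summed FPKM of 14 macrophage markers; right, Ucp3 against the summed FPKM of 16 skeletal muscle markers, 1 point per library (WT blue, KO red), all axes linear and starting at 0. In WT the macrophage sum and Ucp2 have the same order, KO replicate 2 combines the highest macrophage sum with the lowest Ucp2, and KO replicate 1 has the lowest muscle sum, 419 FPKM, with 6.96 FPKM of Ucp3.

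None of the genome neighbours given here was lowest in both WT replicate 1 and KO replicate 2, as the members were. Each shared a part of that pattern, which is easily shared with 3 libraries a group. How many of all genes show the pattern or a part of it was not counted. KO replicate 2 was the lowest KO library for Dnajb13, C2cd3 and Elmod2. WT replicate 1 was the lowest WT library for Tbc1d9 and Ppme1. Dnajb13, which starts 3381 bp after Ucp2, stayed between 0.36 and 0.74 FPKM (limma, adjusted p = 0.566). C2cd3, which ends 2831 bp before Ucp3, was at 1.83 to 2.73 FPKM in WT and 1.98 to 3.04 FPKM in KO (adjusted p = 0.704). Next to Ucp1, Elmod2 was at 8.22 to 19.1 FPKM in WT and 15.2 to 17.6 FPKM in KO (0.45, limma, adjusted p = 0.386), and Tbc1d9 at 1.03 to 1.70 and 0.81 to 1.45 FPKM (−0.15, adjusted p = 0.684). The next measured gene before C2cd3, Ppme1, was at 19.9 to 21.8 and 14.6 to 18.3 FPKM (limma, −0.36, adjusted p = 0.229). Apart from the members themselves, the other neighbours by the rule were not found by gene identifier in the deposited data. Within each group, WT replicate 1 and KO replicate 2 were the lowest libraries for all 3 members, on both chromosomes.

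Genes with the most similar patterns were found by the root-mean-square difference between log2(FPKM + 1) profiles over the 6 libraries, each centred on its mean, among 5985 genes whose mean was 10 FPKM or more. They were chosen for their closeness, so no test of it is given. For Ucp1, whose own profile had a root-mean-square size of 0.65, the closest included Acot1 (0.178), Atg4d (0.20), Rgl3 (0.203) and Ppif (0.228). Ppif, which encodes the mitochondrial cyclophilin D, held 79.7, 96.9 and 99.2 FPKM in WT, and 46.2, 41.6 and 61.5 FPKM in KO. It passed in limma (−0.89, adjusted p = 0.0423), while Atg4d and Rgl3 did not (adjusted p = 0.0643 and 0.118). Genes chosen for closeness to Ucp1 are likely to be lower in KO by that choice, so these p-values are no separate support. For Ucp2, with a size of 0.48, they were Nudt7 (0.114), a peroxisomal coenzyme A hydrolase, Mapre3 (0.115), Tmem53 (0.15), Car4 (0.162), a membrane-bound carbonic anhydrase, and Cldn15 (0.174). Nudt7 held 34.4, 69.9 and 60.8 FPKM in WT, and 49.4, 28.2 and 50.1 FPKM in KO, low in the same libraries as Ucp2. For Ucp3, with a size of 0.81, they were Tmem254b (0.23), whose reads may be shared with near-identical copies, Mb (0.328), Ppp1r1a (0.339), Rbp7 (0.363) and Ckb (0.371). Mb held 11.3, 27.4 and 32.3 FPKM in WT, and 11.7, 9.01 and 11.4 FPKM in KO, so unlike Acta1, Ckm and Mylpf it was not lowest in KO replicate 1.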

How the data were processed

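Expression values were used as deposited by the authors: FPKM per gene and library, per the file headers, with 2 decimals in the table. The submitters' processing notes name HISAT2 2.0.4, Bowtie2 2.2.5, DESeq2 and the build mm10, with no role; the counting tool, annotation and strand handling are not given in the sources used here. Libraries were assigned from their titles. FPKM are not counts, so limma 3.58.1 in R 4.3.3 (eBayes with trend) was run on log2(FPKM + 1) for the 13331 genes whose mean was 0.5 FPKM or more, with Benjamini-Hochberg adjustment over all of them and a threshold of 0.05. The fit was tested on simulated data. Fold changes of low genes are understated by the pseudocount of 1. Exact permutation tests used SciPy 1.17.1.

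Depth was estimated from steps between low FPKM of single-transcript genes of 500 to 1300 nt (GENCODE lengths less 25 nt). The depth and the 25 nt were those that brought the values closest to whole reads. At these settings 74.6% to 79.2% of values lay within 0.2 of a whole read, against 38.3% to 44.1% with shuffled lengths. The shuffled lengths were not fitted anew, so part of this contrast follows from the fitting.

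There were 19 gene lists with 208 different genes, all found, 1 of them by an older symbol. Members and lists were chosen with earlier results of these data known. The rule for named genes took the members, Fstl1, the called genes of each list or else the 2 with the smallest p, the first 3 markers of each cell type, the 3 neighbours on each side and the 5 closest patterns; several lists without a call are given by counts alone, and other list genes named were chosen after their values were seen. Alternatives were other pseudocounts, filters and scalings, other eBayes settings, array weights, the replicate block and leaving out each library. A gene of the adrenergic list and a gene of the closest patterns are not reported here, and the former is left out of the counts of its list.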

Additional observations from a re-analysis of the deposited data

How the results depend on the processing

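Array weights moved Ucp1 to a log2 fold change of −1.17 (limma, adjusted p = 0.00481) and Ucp3 to −1.48 (adjusted p = 0.0155), both past the threshold, and the cause was not tested beyond the weights given above. Leaving out each library in turn, Ucp1 ran from −1.31 to −0.77, Ucp2 from −0.58 to 0.07 and Ucp3 from −1.47 to −0.45. Among these fits, Ucp2 turned above 0 without KO replicate 2 (0.074). The Ucp1 to Ucp3 log2 ratio ran from −0.493 to 0.405 and turned above 0 when WT replicate 1 (0.405) or KO replicate 1 (0.051) was left out. The Ucp1 to Ucp2 difference stayed between −0.995 and −0.666 and the Ucp2 to Ucp3 difference between 0.502 and 1.07. The number of genes called was 295 (134 lower, 161 higher), 35 without the filter, 191 with a common sum, 3181 with array weights and 31 (without WT replicate 3) to 370 (without WT replicate 1) when each library was left out. The other omissions gave 39 for WT replicate 2 and 87 to 121 for the KO libraries. Fewer samples weaken these fits by construction, and otherwise the cause was not tested.

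Both groups number their replicates 1 to 3. Across genes, the departures of WT and KO libraries of equal number from the mean of their own group had correlations of 0.0681, 0.0433 and 0.0433, too low to treat the numbers as pairs, although each library correlated best with its own number. With the replicate block, 167 genes were called, Acsl1, Agpat2, Plin1, Plin5, Acot1 and Ppif were no longer among them, the log2 fold changes of the members were as reported, and the adjusted p (limma) was 0.0871 for Ucp1, 0.762 for Ucp2 and 0.366 for Ucp3.

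With 3 libraries a group, no exact test can pass 0.05, and the wide intervals of Ucp2 and Ucp3 leave falls and rises undecided.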
